A study of Mus musculus with 18 samples.

Results

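Genes of cholesterol and fatty acid synthesis were followed across 6 genotypes of mouse naive CD4 T cells. The set was a list of 33 gene symbols, matched by name to a deposited expression table of 23951 symbols. It holds the enzymes of the mevalonate and sterol pathways, the enzymes of fatty acid synthesis, the SREBP system, the LXR and RXR receptors and 3 sterol transport genes. Of the 33 genes, 31 reached at least 1 RPKM (reads scaled to transcript length and to the library's mapped reads) in at least 3 libraries and were tested among 11099 genes. Hmgcs1, which makes HMG-CoA, was listed at 0 in all 18 libraries. Idi1, an isomerase of the mevalonate pathway, ranged from 0.0522 to 0.80 RPKM and was not tested. Of the tested genes, 29 were at 1 RPKM or more in all 18 libraries. Acaca reached that level in 17 libraries and Scd1 in 10.

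The cells were CD4+CD25-CD62Lhi T cells from C57BL/6 mice, isolated by flow cytometric sorting and profiled by RNA sequencing in 3 libraries per genotype. In 4 genotypes, T cells over-expressed a microRNA transgene (Tg): the whole cluster of miR-23, miR-27 and miR-24 (cluster Tg), or miR-23, miR-24 or miR-27 alone (miR-23 Tg, miR-24 Tg, miR-27 Tg). In the double knockout (DKO) both genomic copies of the cluster, miR-23a and miR-23b, were deleted in T cells, and wild type (WT) mice served as controls. The genotype labels of the WT and DKO libraries also carry the letters Tg, and each library was placed by its title. The sources used here do not give the promoter of the transgenes, the Cre driver of the deletion, the age of the mice or whether each library came from a separate mouse, so p-values measure the spread between libraries, which may be technical. In whole-population RNA, fewer cells of a type and less RNA per cell cannot be told apart.

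Cells build cholesterol from acetyl-CoA through mevalonate, squalene and lanosterol, and build fatty acids from acetyl-CoA through malonyl-CoA. SREBP transcription factors switch on both pathways when membrane sterol is low, after SCAP escorts them from the endoplasmic reticulum, while INSIG proteins hold SCAP back when sterol is plentiful. LXR receptors, which pair with RXR, sense oxysterols and switch on sterol export and part of fatty acid synthesis. Naive T cells are quiescent and raise these pathways when they are activated to divide.

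MicroRNAs of the clusters are shown because their seeds, bases 2 to 8 in capitals, define the sites searched for in the members' transcripts. The sequences are from RefSeq on GRCm38.p6, written 5′ to 3′, and miR-23b-3p is named only.
miR-23a-3p: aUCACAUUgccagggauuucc
miR-27a-3p: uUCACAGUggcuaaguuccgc
miR-27b-3p: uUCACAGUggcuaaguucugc
miR-24-3p: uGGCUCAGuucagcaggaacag
The 2 miR-27 forms share 1 seed, and miR-24-3p is the same from both genomic copies. On chromosome 8, plus strand, miR-23a-3p lies at 84208563 to 84208583, miR-27a-3p at 84208727 to 84208747 and 1 copy of miR-24-3p at 84208875 to 84208896. On chromosome 13, miR-27b-3p lies at 63300760 to 63300780 and the other copy of miR-24-3p at 63301251 to 63301272.

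Of the hairpin rows, those named Mir23a, Mir27a and Mir24-2 were high in the transgenic genotypes whose labels name them. Mir23a was at 32829 to 176360 RPKM in cluster Tg and 64024 to 74236 RPKM in miR-23 Tg, against 0 to 382 RPKM in the other genotypes, and Mir24-2 was listed at 0 in all 3 DKO libraries. The rows of the other genomic copy (Mir23b, Mir27b and Mir24-1) were at 0.000378 RPKM or less in every library, WT included, so they check nothing. Such values lie far below 1 read, and a 0 in this table can be a failed estimate, also for Hmgcs1. The T cell list (11 genes found in the table, among them Cd3e and Lck) summed to 3709 to 5986 RPKM in the 18 libraries. On the first principal component, 24.8% of the variance, 2 libraries lay far from the other 16 (-20.8 to -0.317). They were replicate 3 of miR-27 Tg (122.5) and replicate 3 of DKO (51.3). Some results of members are therefore given with and without them. All comparisons share 1 estimate of the spread, so leaving them out also changes adjusted p-values between groups that hold neither of these 2 libraries. The 83 ribosomal protein genes averaged 1298 and 907 RPKM in those libraries and 230.4 to 509.96 RPKM in the rest. On the second component, 14.7% of the variance, the miR-23 Tg, WT and DKO libraries (16.4 to 30.2) separated from those of the other transgenic genotypes (-43.9 to -6.61), and whether the 2 sets were prepared separately is not known here. Relative depth was read from the most common ratio of low values between each library and WT replicate 1. It ran from 0.634 (miR-27 Tg replicate 3) to 1.47 times that of WT replicate 1. The cluster Tg libraries were the highest, at 1.30 to 1.47, and the WT libraries were at 0.911 to 1.13. Absolute depth is unknown. Among the miR-23 Tg libraries 2 table columns carry the same name, and they are called column 3 and column 4. Each was matched to the genotype only, and n = 3 in miR-23 Tg rests on counting both as separate libraries. They correlated at r = 0.954 across the tested genes, against at most 0.946 for any other pair of libraries, and shared 0 identical values among 10118 genes.

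Against WT, the stearoyl-CoA desaturase genes Scd1 and Scd2, Rxra and Fdft1 were the members that rose in at least 1 genotype, and Fasn was the one that fell. Calls are Benjamini-Hochberg adjusted p-values under 0.05 over 11099 genes in limma, and log2 fold changes are on the log2(RPKM + 1) scale, which understates changes of low genes. In cluster Tg 4 of 31 members were called (Scd1, Scd2 and Rxra higher, Fasn lower), which is 12.9% against 8.48% of all genes (5.63% higher, 2.85% lower). In miR-24 Tg 3 were called (Scd1 and Scd2 higher, Fasn lower), 9.68% against 3.59% of all genes (2.32% higher, 1.26% lower). In miR-27 Tg 3 were called, all higher (Scd1, Rxra and Fdft1), 9.68% against a background of 8.95% (5.77% higher, 3.18% lower). These counts rest on 3 or 4 genes each, and the miR-27 Tg share lay near the background. Scd1 reached the filter only through transgenic libraries, so its call is not independent of that filter, and without it the counts were 3, 2 and 2 of 30. A fit of only the 6 libraries of a comparison called 7 members for cluster Tg (2302 of all genes) and 0 for miR-27 Tg (43 of all genes). In that miR-27 Tg fit Scd1 had an adjusted p of 0.0854, Rxra 0.225 and Fdft1 0.439. In such fits every member call between miR-27 Tg and another transgenic genotype was lost as well, from 0.0902 for Sqle to 0.537 for Tm7sf2.

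**Figure D1:**
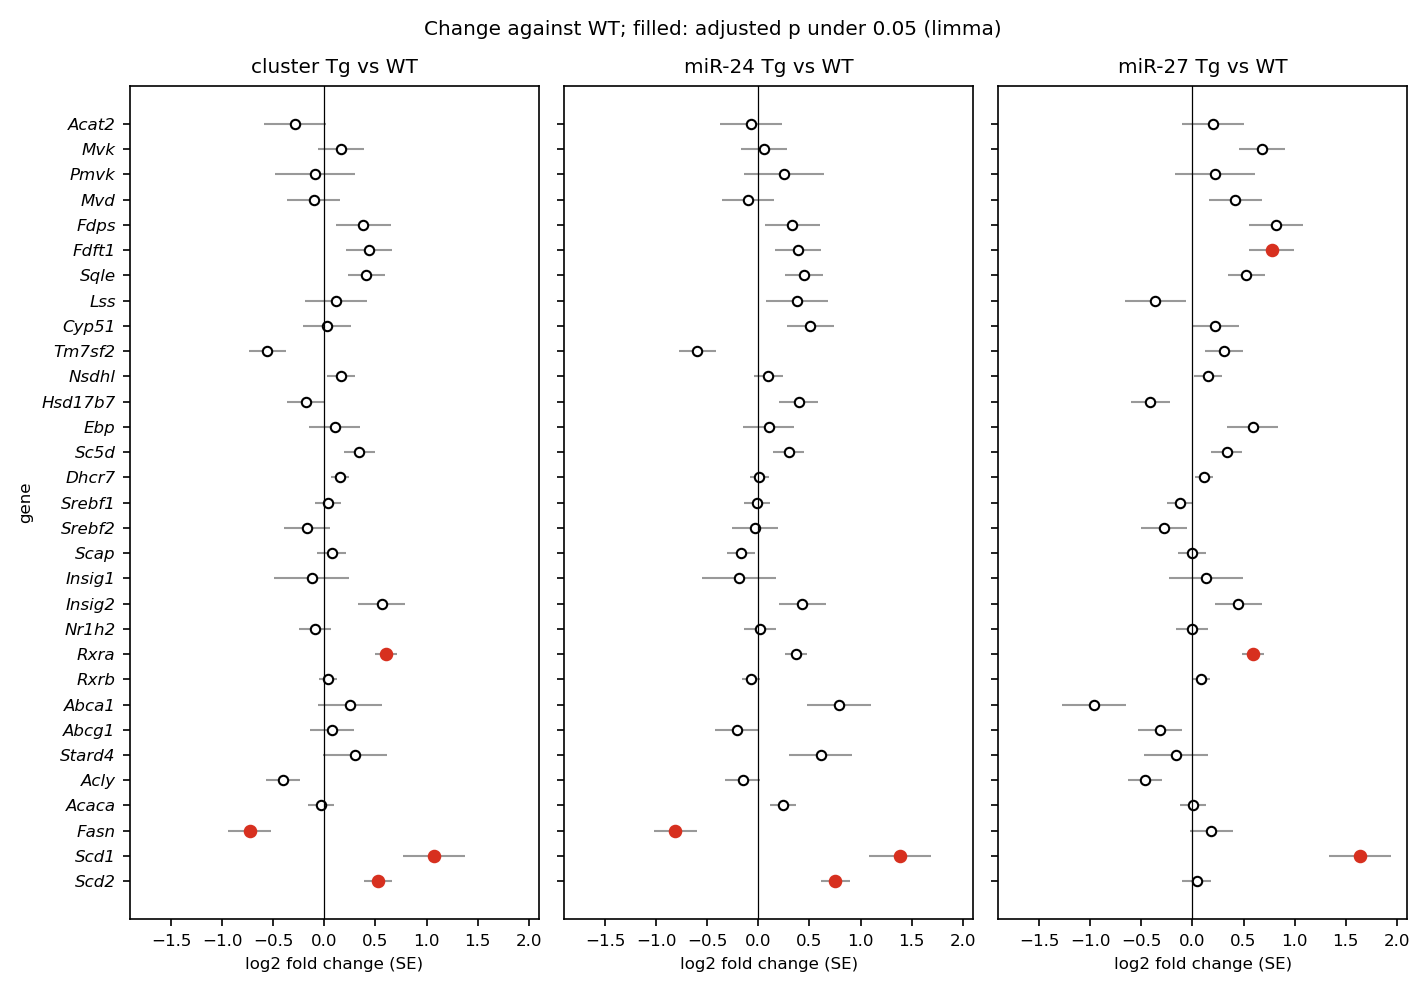
Log2 fold change of the 31 tested genes against WT in 3 transgenic genotypes, on the log2(RPKM + 1) scale. Points are limma estimates, bars are ±1 standard error, and filled points have an adjusted p under 0.05. Most genes of sterol synthesis and its regulators lie within 1 unit of 0 and are open, while Scd1 is filled in all 3 panels.

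In miR-23 Tg 0 members were called against 0.0450% of all genes, and in DKO 0 against 0.00%. At an unadjusted limma p under 0.05, 1 member passed in each. The median log2 fold change of the 31 members, beside that of all tested genes, was 0.08 against 0.00 in cluster Tg, -0.10 against 0.01 in miR-23 Tg, 0.10 against 0.01 in miR-24 Tg, 0.15 against 0.03 in miR-27 Tg and -0.11 against 0.01 in DKO. Without the 2 libraries that stood apart, members called numbered 8 of 31 in cluster Tg (29.1% of all genes called) and 8 in miR-24 Tg (17.5%). They numbered 4 in miR-27 Tg (20.0%), 2 in miR-23 Tg (3.89%) and 0 in DKO (0.0180%). As a share of the 31, members lay below all genes in cluster Tg and miR-27 Tg. WT, cluster Tg, miR-23 Tg and miR-24 Tg hold neither of those 2 libraries. Log2 fold changes between these groups stayed the same, and only the shared estimate of the spread, and with it the adjusted p-values, changed. The 2 called in miR-23 Tg were Scd2 and Pmvk, both lower. Those added in cluster Tg were Fdps and Fdft1, higher, and Acly and Tm7sf2, lower, and those added in miR-24 Tg were Abca1, Lss, Rxra and Stard4, higher, and Tm7sf2, lower. All comparisons with WT share the same 3 WT libraries. An F test over the 6 genotypes called 8 of 31 members, 25.8% against 19.0% of all genes: Scd1, Scd2, Fasn, Rxra, Abca1, Sqle, Tm7sf2 and Fdft1.

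**Figure D2:**
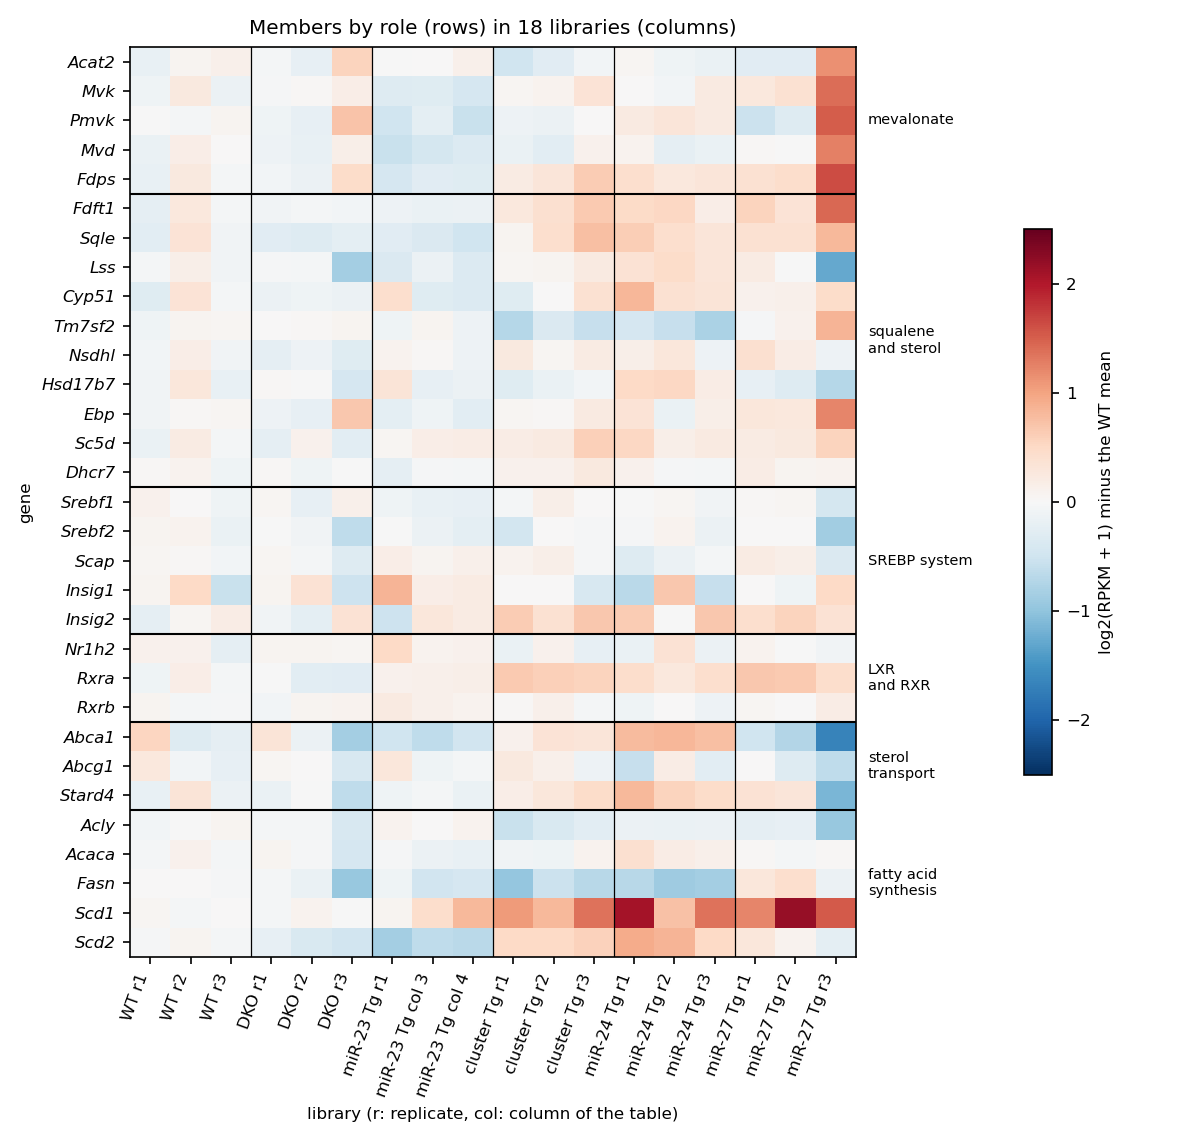
Log2(RPKM + 1) of the 31 tested genes (rows, by role) in each of the 18 libraries (columns), minus the WT mean of the gene, in log2 units from blue (lower) to red (higher). Scd1 is red in miR-24 Tg, miR-27 Tg and cluster Tg, and miR-27 Tg replicate 3 differs from its own replicates in most mevalonate enzymes.

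Of the fatty acid synthesis genes, Scd1 was called against WT in 3 genotypes, and Scd2 and Fasn in 2 each. Scd1 and Scd2 encode stearoyl-CoA desaturases, which put the first double bond into saturated fatty acids. Scd1 was at 0.295, 0.220 and 0.261 RPKM in WT and at 0.214, 0.336 and 0.256 RPKM in DKO. It stood at 1.62, 1.21 and 2.24 RPKM in cluster Tg, at 4.33, 1.08 and 2.21 RPKM in miR-24 Tg and at 1.93, 4.66 and 2.64 RPKM in miR-27 Tg. Every library of these 3 transgenic genotypes lay above every WT and DKO library, and the spread among replicates was wide. For scale, the groups did not overlap for 42.8% of all tested genes in cluster Tg, 33.5% in miR-24 Tg and 27.3% in miR-27 Tg against WT. This share is not given here for other comparisons, where groups that do not overlap are only described. In miR-23 Tg the values were 0.317, 0.698 and 1.20 RPKM.

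The log2 fold change of Scd1 against WT was 1.64 (SE 0.303, limma adjusted p = 0.00442) in miR-27 Tg, 1.39 (adjusted p = 0.0203) in miR-24 Tg and 1.08 (adjusted p = 0.0416) in cluster Tg. The miR-27 Tg call was kept when any 1 of the 6 libraries was left out. In cluster Tg it was lost in each such fit (adjusted p 0.0569 to 0.147), and in miR-24 Tg in each but the one without miR-24 Tg replicate 2 (up to 0.0978). Under quantile normalisation the cluster Tg value was 0.85 (adjusted p = 0.0975). Scd1 was also higher in cluster Tg than in DKO, by 1.07 (adjusted p = 0.0355), which held only without cluster Tg replicate 2 among the fits that left 1 library out (up to 0.131). B cell transcripts moved with Scd1 across the libraries, and within some genotypes myeloid transcripts did as well. The 14 B cell markers, all in the table and none at 0, summed to 21.1 to 33.05 RPKM in WT and 29.8 to 40.9 RPKM in DKO. Their sum was 31.4, 61.7 and 114.5 RPKM in the miR-23 Tg libraries, 105.2, 91.0 and 173 RPKM in cluster Tg, 501, 129 and 167 RPKM in miR-24 Tg and 169, 437 and 987 RPKM in miR-27 Tg. Most of this sum was Cd74, H2-Aa and H2-Ab1. Within miR-23 Tg, miR-24 Tg and cluster Tg the libraries stood in the same order for Scd1 as for this sum. In these genotypes the sum of 12 myeloid markers, most of it Ctss and Cst3, stood in that order too. It was 165, 195 and 198 RPKM in the miR-23 Tg libraries. In miR-24 Tg it was 332, 241 and 251 RPKM, and in cluster Tg 207, 191 and 239 RPKM. In miR-27 Tg the replicate with the highest B cell and myeloid sums was not the one with the highest Scd1. The sorting gate selected CD4+ cells, and the part of B cell or myeloid RNA in the Scd1 result was not tested.

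Scd2, the other desaturase, was present at higher levels and ordered the genotypes differently. It was at 19.7, 21.3 and 19.6 RPKM in WT. Cluster Tg had 28.8, 29.0 and 30.7 RPKM and miR-24 Tg had 39.1, 37.2 and 28.8 RPKM, all above WT. The miR-23 Tg libraries, at 10.8, 12.7 and 12.3 RPKM, lay below every other library, while miR-27 Tg (24.9, 21.5 and 16.8 RPKM) overlapped WT and DKO (17.3, 15.2 and 14.2 RPKM) lay below it. Against WT the log2 fold change was 0.75 (SE 0.139, adjusted p = 0.00744) in miR-24 Tg and 0.53 (adjusted p = 0.0312) in cluster Tg. The values in miR-23 Tg (-0.72, adjusted p = 0.108) and DKO (-0.36, adjusted p = 1) did not pass. Without the 2 libraries that stood apart, miR-23 Tg passed at the same -0.72 (adjusted p = 0.00658). The cluster Tg call was lost when any 1 of the 6 libraries was left out (adjusted p 0.0619 to 0.102), and the miR-24 Tg call was kept in all 6 fits.

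The difference of Scd2 between transgenes was tested directly. It was higher than in miR-23 Tg by 1.47 on the log2 scale in miR-24 Tg (adjusted p = 9.68e-05), by 1.24 in cluster Tg (0.000117) and, least, by 0.76 in miR-27 Tg (0.00294). Scd2 in miR-27 Tg was in turn lower than in miR-24 Tg by -0.71 (0.00429). All 4 calls were kept when any 1 library compared was left out. Against WT, Scd2 in miR-27 Tg had a log2 fold change of 0.04 (adjusted p = 0.863), in the genotype where Scd1 had its highest mean.

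Fasn encodes fatty acid synthase, which assembles palmitate, and it was lower than in WT in cluster Tg and miR-24 Tg, where both desaturases were called higher. WT libraries were at 33.08, 33.01 and 31.9 RPKM. Cluster Tg was at 16.3, 22.2 and 19.9 RPKM and miR-24 Tg at 19.9, 17.2 and 17.6 RPKM, with no overlap with WT. The miR-27 Tg libraries read 40.2, 43.8 and 29.5 RPKM, miR-23 Tg 30.5, 23.1 and 24.2 RPKM, and DKO 31.4, 29.1 and 16.5 RPKM, where the lowest is the replicate that stood apart. Fasn fell by 0.73 on the log2 scale in cluster Tg (SE 0.210, adjusted p = 0.0458) and by 0.81 in miR-24 Tg (adjusted p = 0.0479). Both calls lie at the threshold: each was lost when any 1 of its 6 libraries was left out, with adjusted p up to 0.211 and 0.147. Without the 2 libraries that stood apart, which are in none of these groups, the log2 fold changes were the same. The adjusted p-values were then 0.00071 and 0.000829.

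Between transgenes, Fasn in miR-27 Tg exceeded miR-24 Tg by 1.00 on the log2 scale (adjusted p = 0.00681), a call kept with any 1 library left out. Cluster Tg was below miR-27 Tg by -0.91 (adjusted p = 0.0264), which was lost without cluster Tg replicate 1 or 3 or miR-27 Tg replicate 2 (up to 0.141). Acly, which cleaves citrate to acetyl-CoA, ranged from 38.6 to 81.2 RPKM and was called in no comparison with WT. Its lowest log2 fold change there was -0.46 in miR-27 Tg (adjusted p = 0.107), where the lowest library was replicate 3. In cluster Tg it was at 51.3, 57.9 and 62.9 RPKM, below all WT libraries (72.8, 75.8 and 79.2 RPKM). That difference was -0.40 (adjusted p = 0.182, or 0.00073 without the 2 libraries that stood apart). Acaca, the acetyl-CoA carboxylase that makes malonyl-CoA, ranged from 0.921 to 2.42 RPKM and was not called in any comparison with all libraries. Without the 2 libraries that stood apart, Acaca was called higher in miR-24 Tg than in miR-23 Tg.

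**Figure D3:**
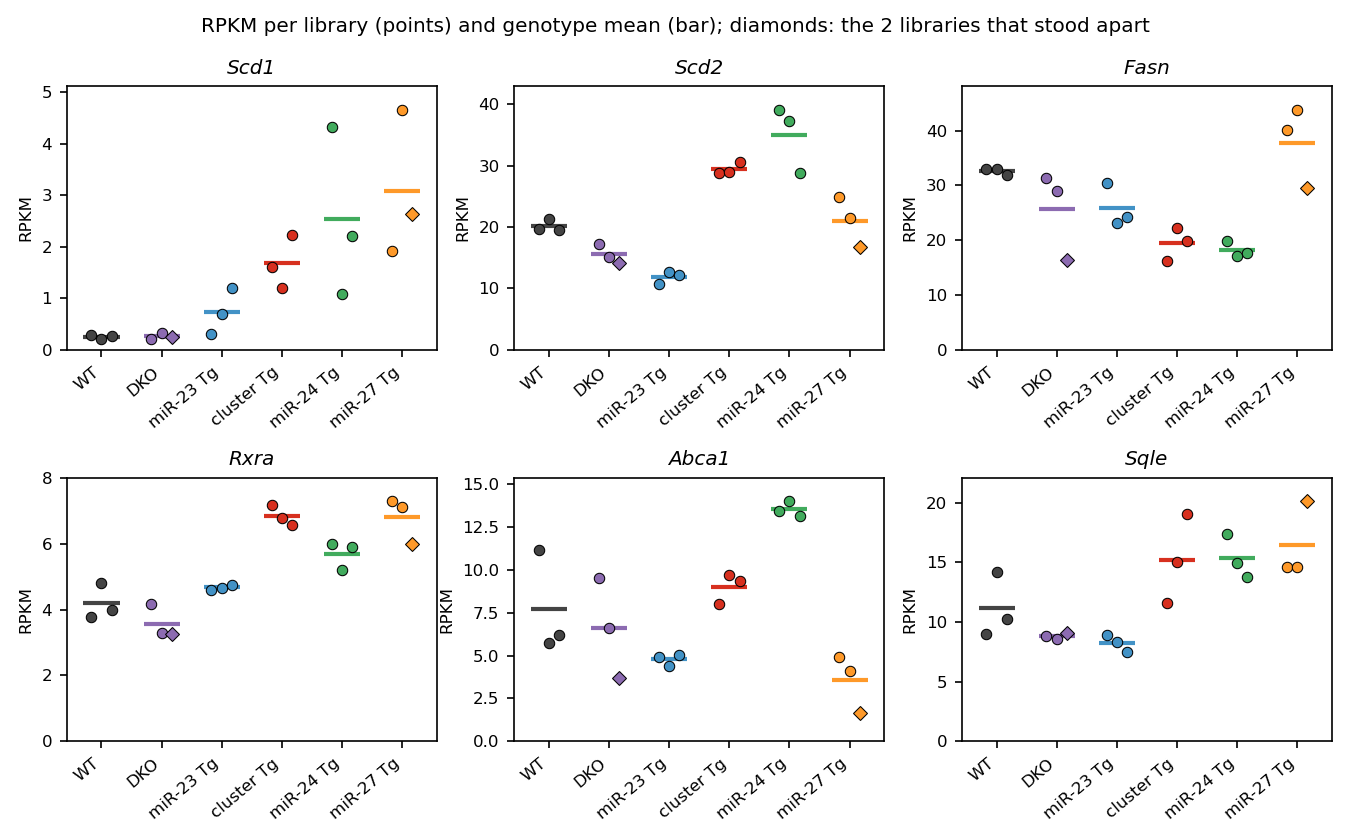
RPKM of 6 members in each library (points) by genotype, with the genotype mean (bar) and axes from 0. Diamonds mark DKO replicate 3 and miR-27 Tg replicate 3. Scd1 is at most 0.336 RPKM in WT and DKO and at least 1.08 RPKM in miR-24 Tg, miR-27 Tg and cluster Tg, Scd2 is lowest in miR-23 Tg, and Abca1 is highest in miR-24 Tg.

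Among the 3 receptor members only Rxra was called against WT. Rxra encodes the retinoid X receptor alpha, the partner of LXR. It was at 3.78, 4.80 and 3.99 RPKM in WT and at 4.16, 3.30 and 3.25 RPKM in DKO. Cluster Tg had 7.18, 6.78 and 6.58 RPKM and miR-27 Tg had 7.28, 7.12 and 6.00 RPKM, and both groups lay wholly above WT. The miR-24 Tg libraries (5.98, 5.19 and 5.90 RPKM) fell between, and miR-23 Tg (4.60, 4.65 and 4.75 RPKM) lay within the WT range. Rxra rose by 0.60 on the log2 scale in cluster Tg (SE 0.107, adjusted p = 0.00302) and by 0.59 in miR-27 Tg (adjusted p = 0.00416). In miR-24 Tg the difference was 0.37 (adjusted p = 0.0772), and without the 2 libraries that stood apart it passed at the same 0.37 (adjusted p = 0.0139). The cluster Tg and miR-27 Tg calls were kept when any 1 library was left out.

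Between gain and loss of the microRNAs, Rxra was higher in cluster Tg than in DKO by 0.78 (adjusted p = 0.000345). Cluster Tg and miR-27 Tg also exceeded miR-23 Tg, by 0.47 (adjusted p = 0.0129) and 0.46 (adjusted p = 0.0116). The former was lost without cluster Tg replicate 1 (0.0642). The Rxra transcript carries seed matches for miR-27 and miR-24. Its longest annotated 3′ UTR, 3269 bases, holds 1 match to the miR-27 seed (ACTGTGA) and 2 to the miR-24 seed (CTGAGCC), shown here with the match in capitals and 14 bases before it, on the plus strand of chromosome 2 in GRCm38.
Rxra miR-27 match, chr2:27762786-27762807: cctgccggcctctgACTGTGAa
Rxra first miR-24 match, chr2:27761365-27761386: tgtaccctgtccctCTGAGCCa
Rxra second miR-24 match, chr2:27761413-27761434: aggaagtcctggggCTGAGCCa
Of the 1227 tested genes with a 3′ UTR of like length, 31.8% held a miR-27 match and 35.2% a miR-24 match, so a match in a UTR this long is common.

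With all libraries, the other 2 receptor members were not called in any comparison. Nr1h2, which encodes LXR beta, was at 84.7, 84.2 and 67.4 RPKM in WT, 70.1, 84.6 and 67.5 RPKM in cluster Tg and 82.6, 82.0 and 80.9 RPKM in DKO. The single transgenes read 111.3, 83.1 and 85.0 RPKM (miR-23 Tg), 70.1, 100.5 and 70.6 RPKM (miR-24 Tg) and 83.1, 77.6 and 73.8 RPKM (miR-27 Tg). Every genotype overlapped WT, and log2 fold changes against WT lay between -0.09 and 0.23. Rxrb, a second RXR, ranged from 47.9 to 60.9 RPKM over the 18 libraries. Without the 2 libraries that stood apart, Rxrb was called lower in miR-24 Tg than in miR-23 Tg.

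Abca1 was highest in miR-24 Tg. It encodes the transporter that loads cholesterol onto apolipoprotein A-I and is a classic LXR target. In miR-24 Tg it was at 13.4, 13.996 and 13.2 RPKM, above all other libraries. In miR-27 Tg it was at 4.94, 4.08 and 1.63 RPKM, and in miR-23 Tg at 4.93, 4.41 and 5.01 RPKM. Both lay below all WT libraries (11.2, 5.74 and 6.20 RPKM) and overlapped each other, with a difference of -0.43 on the log2 scale (adjusted p = 0.332). Cluster Tg read 8.01, 9.71 and 9.35 RPKM and DKO 9.54, 6.59 and 3.68 RPKM.

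The WT libraries themselves spread from 5.74 to 11.2 RPKM. Neither miR-24 Tg (log2 fold change 0.79, SE 0.312, adjusted p = 0.231) nor miR-27 Tg (-0.97, adjusted p = 0.0727) passed against WT. Without the 2 libraries that stood apart these were 0.79 (adjusted p = 0.0148) and -0.61 (0.0637), and miR-27 Tg passed without its replicate 1 (-1.20, adjusted p = 0.0383). Set against each other, miR-27 Tg was lower than miR-24 Tg by -1.76 (SE 0.312, adjusted p = 0.00243), and the call was kept when any 1 of the 6 libraries was left out, with values from -1.99 to -1.40 (a fit of only those 6 libraries gave an adjusted p of 0.126). Abca1 was also higher in miR-24 Tg than in miR-23 Tg by 1.33 (adjusted p = 0.0212) and higher in cluster Tg than in miR-27 Tg by 1.22 (adjusted p = 0.0443). With 1 library left out, these held only without miR-24 Tg replicate 2 and without miR-27 Tg replicate 1, respectively (adjusted p up to 0.0747 and 0.127). Myeloid markers, 12 genes, summed to 199.9 to 217 RPKM in WT, 241 to 332 RPKM in miR-24 Tg and 252 to 442 RPKM in miR-27 Tg, where Abca1 was lowest. Most of that sum was Ctss and Cst3, at means of 146.5 and 55.4 RPKM in WT. All 12 genes had a higher mean in both transgenic genotypes than in WT. Lyz2 averaged 0.431 RPKM in WT, 7.01 RPKM in miR-24 Tg and 13.1 RPKM in miR-27 Tg, and Tyrobp 0.488, 5.57 and 9.53 RPKM. NK cell markers, 4 genes, summed to 37.1 to 48.4 RPKM in miR-24 Tg and to between 7.25 and 19.2 RPKM in the other libraries, with Klrd1 at a mean of 38.9 RPKM in miR-24 Tg and 11.5 RPKM in WT. The part of either cell type in the Abca1 result was not tested. The Abca1 3′ UTR, 3156 bases, holds 1 miR-27 seed match, in GRCm38 on the minus strand, and no match to the miR-23 or miR-24 seed.
Abca1 miR-27 match, chr4:53031477-53031498: tggaaaacttactaACTGTGAa
A miR-27 match was present in 30.3% of 1249 genes with a UTR of like length.

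Fasn holds a match for both seeds in a 3′ UTR of 2008 bases, on the minus strand of chromosome 11 in GRCm38, shown because its levels differed between miR-24 Tg and miR-27 Tg.
Fasn miR-24 match, chr11:120807587-120807608: aggcaggagccaaaCTGAGCCt
Fasn miR-27 match, chr11:120806720-120806741: agcagtatgtgaccACTGTGAg
Of 1622 genes with a UTR of like length, 25.5% held a miR-24 match and 23.4% a miR-27 match. The Scd2 3′ UTR, 3664 bases, holds 1 miR-23 match, 1 miR-27 match and no miR-24 match, and is not shown. Among 1077 genes with a UTR of like length to Scd2, 35.9% held a miR-23 match and 35.5% a miR-27 match.
Over the whole set, the share of members with a match lay near that of all genes for each seed, slightly below it. These shares rest on 4 or 5 members each and were not matched for UTR length. A miR-23 match (AATGTGA) was found in 4 of 31 members, 12.9% against 16.4% of 9822 tested genes with a 3′ UTR. For miR-24 it was 5 of 31, 16.1% against 19.1%, and for miR-27 5 of 31, 16.1% against 16.97%. Only the transcript strand was searched, the 3 motifs do not contain each other, and a match is a description of the sequence, not a site of action.

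The other transport genes were not called with all libraries. Abcg1, a sterol exporter that works beside Abca1, was at 37.9, 29.997 and 27.2 RPKM in WT and at 37.4, 34.2 and 28.6 RPKM in cluster Tg. It read 38.7, 28.9 and 30.2 RPKM in miR-23 Tg, 20.8, 36.0 and 26.1 RPKM in miR-24 Tg, 31.6, 24.8 and 20.0 RPKM in miR-27 Tg and 32.5, 31.7 and 23.6 RPKM in DKO, so every genotype overlapped WT. Stard4, a carrier of cholesterol between membranes, ranged from 2.67 to 13.3 RPKM. Its 2 highest libraries were both miR-24 Tg, where the log2 fold change against WT was 0.61 (adjusted p = 0.419, or 0.00911 without the 2 libraries that stood apart).

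The SREBP system gave 0 calls among its 5 genes in any comparison with WT. Srebf1, the SREBP gene of fatty acid synthesis, was at 37.1, 34.5 and 32.1 RPKM in WT and at 33.2, 38.3 and 34.8 RPKM in cluster Tg. The others were close to these: 31.9, 30.4 and 29.8 RPKM in miR-23 Tg, 34.4, 35.6 and 32.4 RPKM in miR-24 Tg, 35.1, 35.6 and 25.3 RPKM in miR-27 Tg and 35.7, 29.99 and 37.6 RPKM in DKO. Only miR-23 Tg lay wholly below WT. Log2 fold changes of Srebf1 against WT ran from -0.16 to 0.04, with a standard error of 0.125.

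Srebf2, the SREBP gene of cholesterol synthesis, was at 86.4, 87.6 and 73.2 RPKM in WT and at 59.2, 82.2 and 80.2 RPKM in cluster Tg. It was at 81.2, 73.8 and 68.9 RPKM in miR-23 Tg and at 80.2, 87.4 and 74.2 RPKM in miR-24 Tg. The lowest values were in the libraries that stood apart, with 83.2, 83.1 and 44.8 RPKM in miR-27 Tg and 81.5, 77.1 and 52.3 RPKM in DKO. Every genotype overlapped WT. Insig1, which retains SCAP, was the most variable of the group: 21.7, 29.5 and 13.7 RPKM in WT, 20.8, 20.9 and 15.4 RPKM in cluster Tg and 38.0, 23.2 and 23.9 RPKM in miR-23 Tg. In miR-24 Tg it was at 12.6, 33.7 and 13.5 RPKM, in miR-27 Tg at 20.9, 19.2 and 29.4 RPKM and in DKO at 21.8, 26.8 and 14.2 RPKM, and every genotype overlapped WT. Its standard error of 0.364 on the log2 scale leaves moderate differences undetectable with 3 libraries. Insig2 ranged from 4.30 to 11.2 RPKM, with log2 fold changes against WT of 0.56 in cluster Tg, 0.43 in miR-24 Tg and 0.45 in miR-27 Tg, none called. Its cluster Tg (8.91 to 11.1 RPKM) and miR-27 Tg libraries (8.86 to 10.3 RPKM) lay above all WT libraries (5.56 to 7.64 RPKM). For scale, 42.8% and 27.3% of all tested genes did not overlap WT in these genotypes. Without the 2 libraries that stood apart, Insig2 was called higher in cluster Tg than in DKO. Scap ranged from 28.9 to 43.0 RPKM.

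In the mevalonate steps, which lead from acetyl-CoA to farnesyl diphosphate, 0 of 5 tested genes were called against WT in any genotype with all libraries. The highest library for all 5 was miR-27 Tg replicate 3. There Fdps, farnesyl diphosphate synthase, was at 44.1 RPKM against 17.95 and 18.8 RPKM in the other miR-27 Tg libraries. Pmvk, phosphomevalonate kinase, was at 38.2 RPKM against 8.35 and 9.97 RPKM. Mvd, the decarboxylase that follows it, was at 36.8 RPKM against 15.1 and 14.7 RPKM. This library also had the highest ribosomal protein mean. DKO replicate 3, which had the next highest, was the second highest library for Pmvk (21.3 RPKM) and Acat2 (10.9 RPKM), but not for Fdps (19.1 RPKM). Whether the RNA content of these libraries accounts for their enzyme levels was not tested. Without both, Fdps in miR-27 Tg against WT went from a log2 fold change of 0.82 (adjusted p = 0.0758) to 0.41 (adjusted p = 0.0433), and Pmvk turned from 0.22 (adjusted p = 0.722) to -0.43 (adjusted p = 0.00968).

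**Figure D4:**
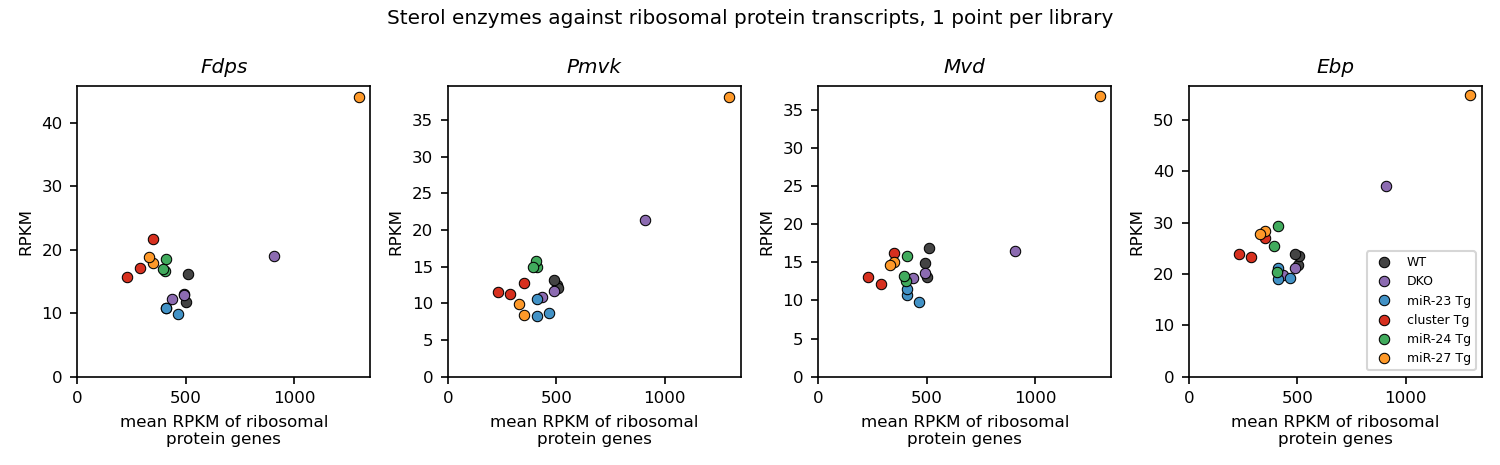
RPKM of Fdps, Pmvk, Mvd and Ebp (vertical axes) against the mean RPKM of 83 ribosomal protein genes (horizontal axis), 1 point per library, coloured by genotype. The miR-27 Tg library at 1298 RPKM is the highest for each gene, and the other 17 libraries lie between 8.31 and 37.2 RPKM.

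Fdft1, squalene synthase, and Sqle, squalene epoxidase, carry the pathway into sterols. Fdft1 was at 4.43, 6.58 and 5.11 RPKM in WT and at 8.24, 6.96 and 16.2 RPKM in miR-27 Tg. It stood at 7.84, 8.002 and 6.09 RPKM in miR-24 Tg, 6.56, 7.36 and 8.95 RPKM in cluster Tg, 4.80, 4.66 and 4.73 RPKM in miR-23 Tg and 4.96, 5.08 and 5.04 RPKM in DKO. Only miR-27 Tg lay wholly above WT, and its highest value came from the library that stood apart. Fdft1 rose in miR-27 Tg by 0.78 on the log2 scale (SE 0.224, adjusted p = 0.0454). Without replicate 3 the value was 0.44 (adjusted p = 0.0771), and leaving out each WT library also ended the call (0.0504 to 0.169).

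Sqle was at 9.02, 14.2 and 10.2 RPKM in WT and at 8.86, 8.61 and 9.08 RPKM in DKO. It was at 11.6, 15.0 and 19.0 RPKM in cluster Tg, 17.4, 14.9 and 13.8 RPKM in miR-24 Tg, 14.6, 14.7 and 20.1 RPKM in miR-27 Tg and 8.87, 8.33 and 7.46 RPKM in miR-23 Tg. The miR-23 Tg and DKO libraries lay below all libraries of the other 3 transgenes. No comparison of Sqle with WT passed, with adjusted p of 0.0923 or more. Cluster Tg exceeded DKO by 0.69 (SE 0.183, adjusted p = 0.0248), a call that held only without cluster Tg replicate 1 among the fits that left 1 library out (up to 0.112). Sqle exceeded miR-23 Tg by 0.91 in miR-27 Tg (adjusted p = 0.00518), 0.83 in miR-24 Tg (0.0156) and 0.79 in cluster Tg (0.0132). The first was kept when any 1 library was left out. With 1 library left out, the call in miR-24 Tg was lost without its replicate 1 (0.0819) or miR-23 Tg column 4 (0.0645), and that in cluster Tg without its replicate 3 (0.0649) or the same column (0.0573).

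Tm7sf2, a sterol reductase late in the pathway, was lower in miR-24 Tg (4.94, 4.32 and 3.62 RPKM) and cluster Tg (3.85, 5.16 and 4.31 RPKM) than in every WT library (6.39, 7.34 and 7.20 RPKM). Its other values were 6.80, 7.57 and 13.3 RPKM in miR-27 Tg, 6.44, 7.31 and 6.27 RPKM in miR-23 Tg and 6.99, 7.18 and 7.37 RPKM in DKO. Neither difference from WT passed: -0.60 in miR-24 Tg (adjusted p = 0.0946) and -0.56 in cluster Tg (0.0801). Without the 2 libraries that stood apart both passed with the same log2 fold changes, at adjusted p of 0.00312 and 0.00258. Tm7sf2 was higher in miR-27 Tg than in miR-24 Tg by 0.90 (adjusted p = 0.00538), kept with any 1 library left out. Cluster Tg was lower than miR-27 Tg by -0.87 (0.0182), lost without cluster Tg replicate 1 or 3 (up to 0.101).

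With all libraries, the other 7 squalene and sterol genes were called against WT in no genotype. Their medians over the 18 libraries ran from 2.79 RPKM for Hsd17b7 to 23.7 RPKM for Ebp. Lss, which closes squalene epoxide into lanosterol, ranged from 3.12 to 12.9 RPKM, and its lowest library was miR-27 Tg replicate 3, against the direction of Fdft1 and Ebp there. In miR-24 Tg Lss was at 11.9, 12.9 and 11.4 RPKM against 8.66, 10.1 and 8.49 RPKM in WT, a log2 fold change of 0.38 (adjusted p = 0.73, or 0.0116 without the 2 libraries that stood apart). Cyp51, which demethylates lanosterol, ranged from 7.36 to 17.77 RPKM, and Dhcr7, the last enzyme to cholesterol, from 14.7 to 20.9 RPKM. Of all 10 genes of this step, 9 had a log2 fold change above 0 against WT in miR-24 Tg, 8 each in miR-27 Tg and cluster Tg, 1 in miR-23 Tg and 2 in DKO. Their medians were 0.34, 0.27, 0.13, -0.09 and -0.13 in that order. These are descriptions of the fitted values, and of the single tests with all libraries only Fdft1 in miR-27 Tg passed.

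With all libraries, the comparison with the most called members was between 2 transgenes. Between miR-27 Tg and miR-23 Tg, 10 of 31 members were called, 32.3% against 16.6% of all genes (9.42% higher, 7.22% lower). Higher in miR-27 Tg were Mvk, Mvd, Fdps, Fdft1, Sqle, Ebp, Rxra, Scd1 and Scd2, and Acly was lower. Without Scd1 the count was 9 of 30. Fdps differed by 1.15 (adjusted p = 0.0108), Mvk, mevalonate kinase, by 1.03 (0.00849) and Ebp, a sterol isomerase, by 0.80 (0.0429). Mvd differed by 0.86 (0.0361) and Acly by -0.52 (0.0468). Leaving out miR-27 Tg replicate 3 kept Fdps and Mvk, at 0.75 and 0.67, and ended the calls of Ebp and Acly. Leaving out any 1 miR-23 Tg library ended those of Mvd, Ebp and Acly (adjusted p up to 0.129), and leaving out its replicate 1 also that of Scd1 (0.0778).

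The remaining pairs gave fewer calls with all libraries. Between miR-27 Tg and miR-24 Tg 5 members were called, 16.1% against 13.0% of all genes. Fasn and Tm7sf2 were higher (6.78% of genes) and Abca1, Scd2 and Hsd17b7 lower (6.20%) in miR-27 Tg. Hsd17b7, a ketosteroid reductase, was at 4.78, 4.85 and 3.65 RPKM in miR-24 Tg and at 2.56, 2.28 and 1.51 RPKM in miR-27 Tg, a log2 difference of -0.81 (adjusted p = 0.0124) that was lost without miR-24 Tg replicate 2 (0.0512). Cluster Tg against miR-23 Tg gave 3 calls, all higher (Sqle, Rxra and Scd2). That is 9.68% against 10.3% of all genes (6.54% higher, 3.79% lower), a share near the background. For miR-24 Tg against miR-23 Tg there were 3, all higher (Sqle, Abca1 and Scd2), 9.68% against 7.13% (4.33% higher, 2.79% lower). For cluster Tg against miR-27 Tg there were 3, 9.68% against 3.79%, with Abca1 higher (1.98%) and Tm7sf2 and Fasn lower (1.81%). Cluster Tg and miR-24 Tg differed in 0 members against 2.22% of all genes in limma, with 3 at an unadjusted p under 0.05. Cluster Tg against DKO gave 4, all higher in cluster Tg (Sqle, Rxra, Scd1 and Scd2), and 3 of 30 without Scd1. The 4 are 12.9% against 11.3% of all genes (7.14% higher, 4.20% lower), a share near the background. Scd2 differed there by 0.89 (adjusted p = 0.000951).

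The order of the pairs changed without the 2 libraries that stood apart. Of 31 members, those called then numbered 18 for miR-24 Tg against miR-23 Tg (31.1% of all genes called). There were 17 for cluster Tg against miR-23 Tg (34.9%) and 13 for miR-27 Tg against miR-23 Tg (29.3%). The other pairs gave 8 for miR-27 Tg against miR-24 Tg (26.8%), 4 for cluster Tg against miR-24 Tg (15.5%) and 4 for cluster Tg against miR-27 Tg (11.4%). In both of these pairs with miR-24 Tg, the share of members called lay below that of all genes. Cluster Tg against DKO gave 10 (27.6%).

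A further 40 genes of lipid synthesis, uptake and SREBP processing were listed beside the members, and 30 were tested. The fits that left libraries out and the other alternatives were read for the members only. The calls of these 30 genes therefore carry no such check. Against WT, cluster Tg had 1 higher and 2 lower, miR-24 Tg 0 higher and 1 lower, miR-27 Tg 1 higher and 1 lower, and none passed in miR-23 Tg or DKO. These are 10%, 3.33% and 6.67% of the 30, beside 8.48%, 3.59% and 8.95% of all genes. In cluster Tg against DKO, 3 were higher and 1 lower, 13.3% beside 11.3% of all genes. Scarb1, the receptor that takes up cholesterol from HDL, was at 6.78 ± 1.06 RPKM in WT (SD, n = 3) and 3.16 ± 0.452 RPKM in cluster Tg. It fell by 0.90 on the log2 scale in cluster Tg (SE 0.122, adjusted p = 0.000429) and by 0.54 in miR-24 Tg (adjusted p = 0.0239). Mid1ip1, a partner of acetyl-CoA carboxylase, rose in cluster Tg from 5.55 ± 1.12 to 10.8 ± 0.987 RPKM (SD, n = 3), by 0.86 (adjusted p = 0.00432). Fads1, a fatty acid desaturase, fell there by 0.52 (adjusted p = 0.0298).

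In miR-27 Tg, Acss2, which makes acetyl-CoA from acetate, was at 25.5 ± 1.69 RPKM against 42.0 ± 3.37 RPKM in WT (SD, n = 3) and fell by 0.70 (adjusted p = 0.00163). Nr1h3, which encodes LXR alpha, rose by 0.85 (adjusted p = 0.0359), from 0.804 ± 0.293 to 2.43 ± 1.49 RPKM. Its 3 miR-27 Tg libraries were at 1.35, 1.80 and 4.13 RPKM in rising order, so 1 library weighs on that mean. Elovl6, which lengthens palmitate, was at 8.34 ± 1.13 RPKM in miR-24 Tg and 8.32 ± 0.904 RPKM in cluster Tg against 5.65 ± 1.06 RPKM in WT (SD, n = 3), and did not pass in either (adjusted p = 0.0883 and 0.0547). Between cluster Tg and DKO, Mid1ip1 was higher by 1.14 (adjusted p = 0.000485), Scarb1 was lower by -0.82 (0.000624) and Elovl6 was higher by 0.50 (0.0439).

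Beside these results, markers of activated T cells also differed between genotypes. The effector list of 10 genes, among them Cd44 and Cxcr3, summed to 109 to 151 RPKM in WT, 98.3 to 108 RPKM in DKO and 137 to 149 RPKM in miR-23 Tg. In cluster Tg it summed to 441 to 899 RPKM, in miR-24 Tg to 336 to 546 RPKM and in miR-27 Tg to 237 to 730 RPKM. The genotypes with the higher sum are those in which Scd1 was called. The proliferation list of 7 genes summed to 115 to 170 RPKM in WT and 106 to 163 RPKM in those 3 genotypes, and most of that sum was Pcna, Mcm2 and Mcm5. The mitotic cyclin Ccnb1 was at 0.0915 to 0.167 RPKM in WT, and at 0.337 to 0.654 RPKM in cluster Tg, 0.256 to 0.603 RPKM in miR-24 Tg and 0.51 to 1.88 RPKM in miR-27 Tg. Mki67, a marker of dividing cells, averaged 2.95 RPKM in WT, 7.07 RPKM in cluster Tg, 3.98 RPKM in miR-24 Tg and 6.81 RPKM in miR-27 Tg. Its WT libraries (1.51 to 5.42 RPKM) overlapped miR-24 Tg (1.99 to 5.89 RPKM) and miR-27 Tg (4.65 to 9.03 RPKM). Cluster Tg (5.77 to 8.23 RPKM) lay above WT. The list did not move together. Mean Mcm2 was 30.6 RPKM in WT, 23.7 RPKM in cluster Tg, 21.9 RPKM in miR-24 Tg and 29.5 RPKM in miR-27 Tg. Mean Cdk1 was above WT in all 3 genotypes, and mean Top2a in cluster Tg and miR-27 Tg only. Mean Mcm5 was above WT only in miR-27 Tg, and mean Pcna only in cluster Tg. The part of activated or dividing cells in the members' differences was not tested.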

How the data were processed

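RNA was extracted with a kit that retains small RNAs, and libraries were made with a TruSeq RNA kit and sequenced on a HiSeq instrument, per the labels' protocols. The submitters' processing notes name STAR 2.2.0c, HOMER and genome build mm9 without their roles. The deposited table holds RPKM values per gene symbol for all 18 libraries, and no counts were used here. Of 23953 rows, 23951 distinct symbols were used. Genes at 1 RPKM or more in at least 3 libraries were kept, and log2(RPKM + 1) was fitted in limma 3.58.1 (R 4.3.3) with genotype as the only term, all 18 libraries sharing 1 estimate of the spread, and a mean-variance trend. P-values were Benjamini-Hochberg adjusted over 11099 genes within each comparison. The median standard error of a difference was 0.202 on the log2 scale. The procedure was tested on simulated data. Full values are given for members called against WT, in cluster Tg against DKO or by the F test, and for 7 regulators (Srebf1, Srebf2, Insig1, Nr1h2, Rxra, Abca1 and Abcg1); the other pathway genes named are those with the largest called changes, up to 3 per comparison. Members and lists were chosen with earlier results of these data known. Seed matches were searched in the longest 3′ UTR per gene of GENCODE transcripts on GRCm38, and no coordinates of the files were used. Alternatives were other pseudocounts, filters, scalings, weights, library sets, a replicate block and fits without each library.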

Additional observations from a re-analysis of the deposited data

How the results depend on the processing

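Of 38 called member comparisons, 0 changed sign under any of the 14 alternatives chosen at the outset, 6 were called under all of them and 32 lost the call under at least 1. The 6 were Rxra and Scd2 for cluster Tg against DKO, Rxra for cluster Tg against WT, and Scd2 for miR-24 Tg against WT and miR-23 Tg and for cluster Tg against miR-23 Tg. Of 39 regulator comparisons not called, 20 changed sign under some alternative, and 12 calls were gained. Members called against WT (cluster, miR-23, miR-24, miR-27, in that order), for cluster Tg against DKO, by the F test and over the 6 pairs of transgenes numbered 4, 0, 3, 3, 4, 8 and 24. Over all genes the calls in that order were 941, 5, 398, 993, 1259, 2105 and 5892. With array quality weights members called numbered 10, 11, 9, 9, 11, 26 and 84. Calls over all genes were then 3868, 2272, 3402, 3522, 3040, 8211 and 26753. The estimate of the weights gave a convergence warning, so gene-by-gene weights, chosen after seeing the data, were also fitted. They gave 9, 7, 8, 8, 13, 26 and 70 members, beside 3401, 1410, 2451, 3072, 4295, 7556 and 21827 over all genes. Without the 2 libraries that stood apart members called were 8, 2, 8, 4, 10, 16 and 64. The calls over all genes were 3225, 432, 1937, 2218, 3068, 5648 and 16537. With no filter cluster Tg gave 2, beside 1079 of 18238 genes. A fit of only the 6 libraries compared gave 7 for cluster Tg (2302 of all genes) and 0 for miR-27 Tg, where genes called fell from 993 to 43. Same-numbered libraries deviated together more often than others, though not throughout. The correlation of their deviations was over 0.1 in 12 of 35 pairs (-0.111 to 0.580, median 0.070). For pairs with different numbers it was over 0.1 in 8 of 70 (median -0.041). The value of 0.580 was between the 2 libraries that stood apart, both replicate 3. With the replicate number as a term (replicate block, over the 16 libraries whose columns give a number), cluster Tg gave 2, miR-24 Tg 1, cluster Tg against DKO 2 and the pairs 12. Calls over all genes were 837, 331, 1091 and 3742. The same 16 libraries without the block, an alternative also chosen after seeing the data, gave 1 in cluster Tg, 2 in miR-24 Tg, 4 for cluster Tg against DKO and 10 over the pairs. Calls over all genes were then 714, 283, 1015 and 3211. Leaving out each library in turn gave 1 to 1 in cluster Tg, 0 to 0 in miR-23 Tg and in DKO, 1 to 2 in miR-24 Tg, 2 to 6 in miR-27 Tg, 2 to 3 for cluster Tg against DKO, 7 to 14 by the F test and 17 to 41 over the pairs. In those fits genes called ran from 419 to 710 in cluster Tg, 180 to 303 in miR-24 Tg and 533 to 1223 in miR-27 Tg. They ran from 561 to 901 for cluster Tg against DKO, 1575 to 3809 by the F test and 3933 to 9370 over the pairs. Over all genes, 941 were called in cluster Tg against WT, 398 in miR-24 Tg and 5 in miR-23 Tg. With the weights these were 3868, 3402 and 2272, and without the 2 libraries that stood apart 3225, 1937 and 432. Quantile normalisation moved the split of higher and lower genes in cluster Tg from 625 and 316 to 564 and 611, in miR-24 Tg from 258 and 140 to 219 and 199 and in cluster Tg against DKO from 793 and 466 to 665 and 744. It moved that of miR-24 Tg against miR-23 Tg from 481 and 310 to 382 and 419, and of cluster Tg against miR-23 Tg from 726 and 421 to 668 and 666. No called member changed sign there. The causes of these shifts were not tested. With 3 libraries per genotype and no counts, differences in low genes such as Scd1, Acaca and Nr1h3 have the least support from depth.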
